A study of Rattus norvegicus with 64 samples.

Results

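A set of 10 keratin genes of the bladder lining was followed in reconstructed rat bladder wall. Krt5, Krt14 and Krt15 were grouped as basal keratins of urothelium, Krt7, Krt8, Krt18, Krt19 and Krt20 as luminal keratins, and Krt13 and Krt17 in neither set. All 10 were chosen by symbol, through the RefSeq transcript named for each array probe, and not by their values. These 10 genes stood among 45 keratin genes and 15709 named genes on the array, and each was read by 1 probe. RNA came from male Wistar rats that had lost part of the bladder (hemicystectomy) and had received a graft of approximately 1 cm2 of bladder acellular matrix (BAM), which is bladder wall stripped of its cells. In 4 groups the graft was BAM only, and in 4 groups it was seeded with 10000000 adipose tissue-derived stromal cells (ASCs, named ADSCs in the sample labels) and is written BAM+ASCs here. The seeded cells were cultured to passage 3 from retroperitoneal fat of male Wistar rats aged 10 weeks, and no age was given for the operated animals. Animals were killed at 7, 30, 90 or 180 days, and each of the 8 groups held 8 arrays, 1 per rat. The urothelium and submucosa had been scraped from the matrix before grafting. Every group had the operation and the matrix in common, no array of unoperated bladder was analysed here, and the rats were syngeneic.

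Keratins are the intermediate filament proteins of epithelial cells, and they assemble from pairs of a type I and a type II chain. Krt5 and Krt14 are the pair of basal cells, which sit on the basement membrane and divide. Krt8 (type II) and Krt18 (type I) are the pair of simple and luminal epithelium, joined by Krt7 and Krt19. Krt20 belongs to the umbrella cells, the last differentiated layer on the urine side. Krt13 is found in intermediate urothelial cells and in stratified squamous epithelium, and Krt17 is known as a keratin of wounded or stressed epithelium.

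The values are log2 processed signals after the 75th percentile of each array was subtracted, so a value of 0 lies at that percentile, a difference of 1 is a 2-fold difference, and values of different genes were not compared. A DEG had a fold change over 1.5 and a Benjamini-Hochberg adjusted p below 0.01 from limma, fitted over all 64 arrays and adjusted over all 30367 gene probes. Spots well above background made up 73.3% to 95.6% of each array at 7 and 30 days and 35.5% to 64.6% at 90 and 180 days. Those 2 pairs of days were scanned on different dates, and each group lay on a slide of its own, so slide and group cannot be told apart. Urothelial genes (7 or 8 of 8 listed, by group) and all 9 smooth muscle genes were well above background on every array of their group. In whole tissue, fewer cells of a type and less RNA per cell cannot be told apart. Genes of male accessory glands (Pbsn, Svs4, Svs5, Tgm4, Semg1, Sbp) lay above the 75th percentile on 4 arrays of BAM+ASCs and 3 of BAM at 7 days, on 4 and 0 at 30 days, on 1 and 2 at 90 days and on none at 180 days.

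Krt5, Krt7, Krt8, Krt15, Krt18 and Krt19 were well above background on 64 of 64 arrays, Krt14 on 60, Krt20 on 58, Krt17 on 50 and Krt13 on 17. Krt15 was saturated on 23 arrays and Krt18 on 12, though in no group on all 8, and a saturated spot in the brighter group can understate a difference and in the dimmer group overstate it. Krt14 was saturated on 2 arrays, Krt19 on 1 and the other members on 0.

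**Figure D1:**
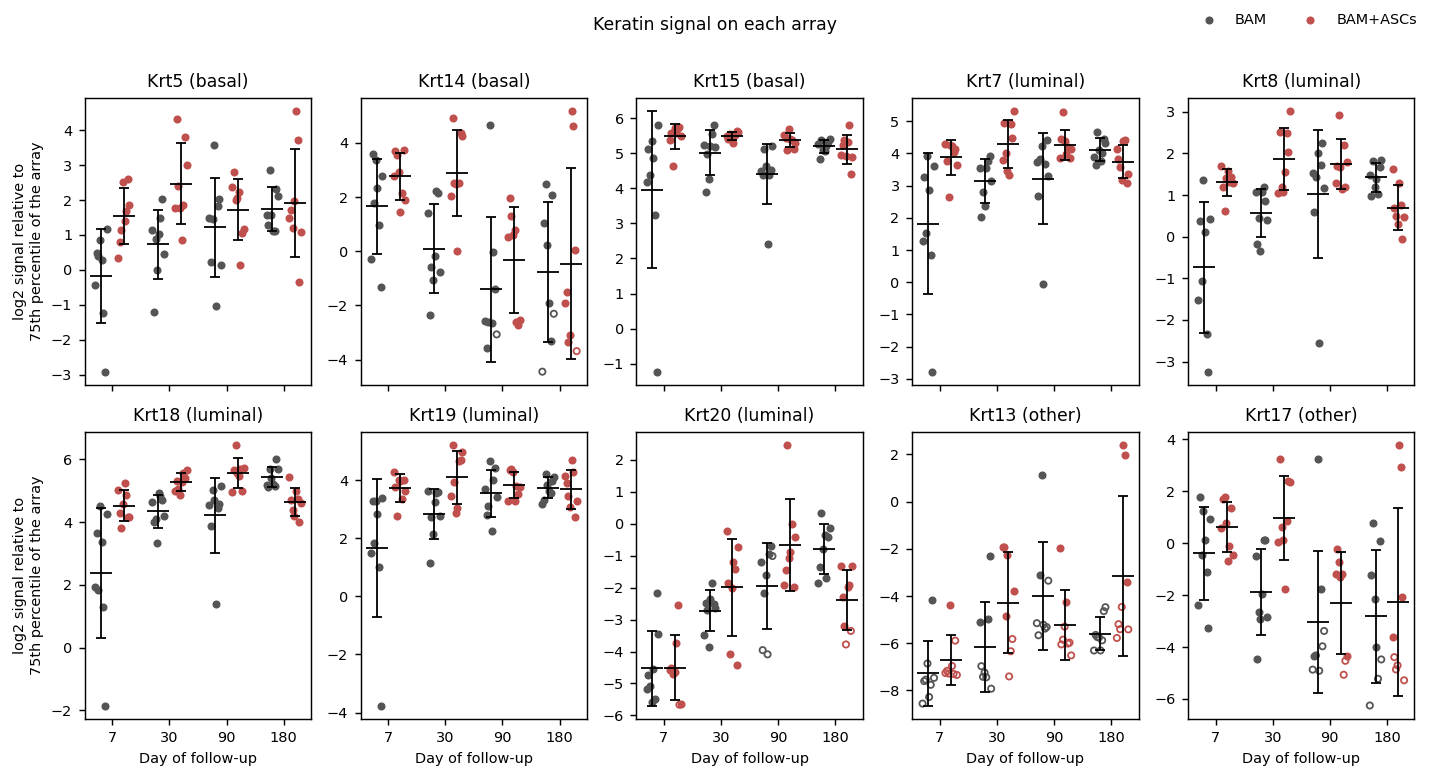
Level of each of the 10 keratins on every array (log2 signal relative to the array's 75th percentile, vertical axis) by day of follow-up, for BAM and BAM+ASCs, with 8 arrays per group, bars for the mean and SD, and open points where the probe was not well above background. The 4 luminal keratins Krt7, Krt8, Krt18 and Krt19 sat lowest and most widely spread in BAM at 7 days, and Krt20 started low in both kinds of graft.

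At 7 days, 4 of the 5 luminal keratins were higher in bladders reconstructed with BAM+ASCs than with BAM only, each by about the same factor, and none of the 3 basal keratins was a DEG. The 4 were Krt7, Krt8, Krt18 and Krt19, and Krt20 did not differ detectably. Of all named genes, 2.63% were higher by the same rule at this day.

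The start regions of the Krt8 and Krt18 genes, which encode the luminal pair, and of Krt5 and Krt20, which mark the opposite ends of urothelial maturation, are given here for reference. Each is the 250 bases before the RefSeq transcription start in GRCr8, read 5′ to 3′ on the strand of the gene, with capitals for a matched motif. Krt5 lies at chr7:134730570-134730819 (minus strand), Krt8 at chr7:135010340-135010589 (minus), Krt18 at chr7:135035918-135036167 (plus) and Krt20 at chr10:84890286-84890535 (minus).
Krt8: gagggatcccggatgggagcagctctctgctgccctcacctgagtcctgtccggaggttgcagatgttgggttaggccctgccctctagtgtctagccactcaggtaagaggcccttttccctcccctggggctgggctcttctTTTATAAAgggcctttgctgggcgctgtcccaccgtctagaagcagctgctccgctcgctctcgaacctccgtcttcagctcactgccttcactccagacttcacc
Krt18: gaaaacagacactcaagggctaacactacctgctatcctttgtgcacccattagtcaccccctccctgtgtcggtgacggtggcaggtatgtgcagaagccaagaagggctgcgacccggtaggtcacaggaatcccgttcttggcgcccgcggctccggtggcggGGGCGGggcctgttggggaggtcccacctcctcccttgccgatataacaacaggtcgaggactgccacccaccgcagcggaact
Krt5: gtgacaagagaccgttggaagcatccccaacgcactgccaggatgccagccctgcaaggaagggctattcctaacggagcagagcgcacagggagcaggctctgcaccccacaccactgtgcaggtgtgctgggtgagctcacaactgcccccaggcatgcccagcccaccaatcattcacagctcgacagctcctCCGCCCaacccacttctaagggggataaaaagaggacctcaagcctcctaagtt
Krt20: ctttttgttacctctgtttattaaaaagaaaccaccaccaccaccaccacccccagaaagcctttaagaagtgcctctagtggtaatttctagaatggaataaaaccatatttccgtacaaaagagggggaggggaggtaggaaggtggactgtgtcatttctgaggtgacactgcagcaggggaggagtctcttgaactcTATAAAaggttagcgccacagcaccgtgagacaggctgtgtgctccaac
Short motifs were searched on both strands of each window. TATAAA, the core of the TATA box, was found in 12.9% of 33469 promoter windows and was present upstream of Krt8, where matches on the 2 strands overlapped at 106 and 104 bases before the start, and of Krt20 at 49 bases. GGGCGG, the core of the GC box, was found in 30.5% of windows and was present upstream of Krt18 at 84 bases and, on the opposite strand, of Krt5 at 54 bases. TGANTCA, an AP-1 type motif, was found in 6.34% of windows and matched in none of the 4. The Krt8 and Krt18 windows lay on opposite strands of chromosome 7 and had a GC content of 60.0% and 62.0%, against 59.2% for Krt5, 47.2% for Krt20 and a median of 51.2% over all windows. A match describes the letters of the window only.

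Krt18, the type I chain of the luminal pair, ranged from -1.85 to 4.50 (median 2.65) over the 8 BAM arrays and from 3.82 to 5.25 (median 4.43) over the 8 BAM+ASCs arrays at 7 days. Of the 8 BAM+ASCs arrays, 4 lay above every BAM array and 6 BAM arrays lay below every BAM+ASCs array, with overlap between the rest. The difference was 2.14 (SE 0.46, 4.42-fold, limma adjusted p = 0.0004566). Krt8, its type II partner, ranged from -3.24 to 1.35 (median -0.47) in BAM and from 0.60 to 1.69 (median 1.35) in BAM+ASCs. Of 8 BAM arrays, 7 were below all BAM+ASCs arrays. The Krt8 difference was 2.05 (SE 0.45, 4.13-fold, limma adjusted p = 0.0006245), close in size to that of Krt18.

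Krt7, a type II keratin of ducts and urothelium, ranged from -2.78 to 3.94 (median 2.20) in BAM and from 2.65 to 4.30 (median 4.09) in BAM+ASCs, and 5 BAM+ASCs arrays exceeded every BAM array. It was higher by 2.06 (SE 0.51, limma adjusted p = 0.00276). Krt19, a type I keratin without a tail domain, ranged from -3.76 to 3.38 (median 2.33) in BAM and from 2.78 to 4.27 (median 3.86) in BAM+ASCs, and 6 BAM+ASCs arrays exceeded every BAM array. It was higher by 2.05 (SE 0.52, limma adjusted p = 0.003068). The median named gene differed by -0.13 in this comparison, and the 4 luminal keratins stood 2.21 to 2.31 above the median probe.

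These 4 calls rested on the shared estimate of spread and partly on 1 array. BAM replicate 7 was the lowest of its group at this day in Krt5, Krt7, Krt8, Krt14, Krt15, Krt17, Krt18 and Krt19, and the highest in Krt13 and Krt20. It had 86.1% of spots well above background, against 74.6% to 79.8% on the other BAM arrays of the day. Without it, the difference was 1.40 for Krt7 (adjusted p = 0.0173) and 1.28 for Krt19 (adjusted p = 0.0133), so both calls were lost in limma, and Krt8 and Krt18 stayed DEGs. In a limma fit of the 16 arrays of day 7 alone, none of the 4 was a DEG, with adjusted p from 0.0148 for Krt8 to 0.0852 for Krt19. Leaving out the arrays with accessory gland genes, a choice made after seeing the data, the differences were 2.92 to 3.08 and the 4 calls were kept with Krt15 added. The part of accessory gland tissue in the difference was not tested beyond that.

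The basal keratins were also higher on average at 7 days but did not pass the test. Krt5, the type II chain of the basal pair, ranged from -2.92 to 1.16 (median 0.34) in BAM and from 0.35 to 2.59 (median 1.54) in BAM+ASCs, with 5 BAM+ASCs arrays above every BAM array, and its difference of 1.72 (SE 0.56) had a limma adjusted p of 0.0236. Krt15, a type I basal keratin, ranged from -1.23 to 5.80 (median 4.62) in BAM and from 4.62 to 5.76 (median 5.58) in BAM+ASCs, where 6 of 8 arrays were saturated. Its difference was 1.52 (SE 0.45, limma adjusted p = 0.0117), just short of the threshold, and no BAM+ASCs array exceeded every BAM array. Krt15 did pass when dim probes were left out or when the percentile was taken over detected probes, so its call depended on the processing. Krt14, the type I partner of Krt5, differed by 1.12 (SE 1.09, limma adjusted p = 0.536), with medians of 2.06 and 2.84. The basal differences thus ran from 1.12 to 1.72, and those of Krt7, Krt8, Krt18 and Krt19 from 2.05 to 2.14. Whether the luminal keratins differed more than the basal ones is not answered by these calls, and the balance between the 2 sets is given after the single genes.

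Krt20 stood apart from the other luminal keratins at 7 days. It ranged from -5.59 to -2.17 (median -4.91) in BAM and from -5.67 to -2.53 (median -4.61) in BAM+ASCs, and the groups overlapped nearly entirely. The difference was 0.02 (SE 0.56, limma adjusted p = 0.982). Krt17 differed by 1.01 (adjusted p = 0.589) and Krt13, well above background on 1 array of each group, by 0.58 (adjusted p = 0.734). All 10 members had a difference above 0, and 6 had an unadjusted p under 0.05 in limma. The share of all named genes under that p is not given, here or below, so such counts only describe the members. Several members also varied together within groups, so they are not separate results.

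**Figure D2:**
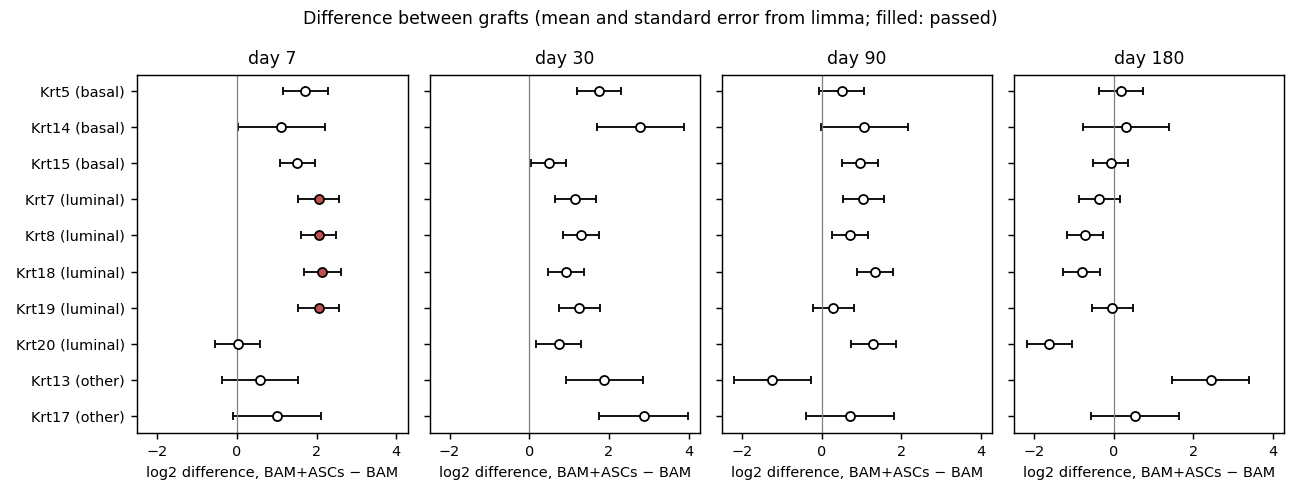
Difference between BAM+ASCs and BAM at each day for the 10 keratins (log2, horizontal axis, 1 panel per day), with bars for the SE from limma, 8 arrays per group and filled points for DEGs. Krt7, Krt8, Krt18 and Krt19 were DEGs at 7 days, no keratin was a DEG at 30, 90 or 180 days, and the difference of Krt20 changed from 1.30 at 90 days to -1.62 at 180 days.

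Other genes of urothelium and epithelium were counted for the same comparison from lists chosen by function. Of 7 uroplakin and umbrella cell genes, 6 rose in BAM+ASCs at 7 days and none fell, with a median difference of 2.13 over the list. Upk2, a uroplakin of the apical plaque, rose by 2.87 (SE 0.58, limma adjusted p = 0.0002205), and Upk1a, its tetraspanin partner, by 2.36 (SE 0.45). Of 12 urothelial transcription factors 6 rose, among them Klf5, by 2.01 (SE 0.42), and Gata3, by 1.89 (SE 0.34). Of 15 epithelial junction genes 12 rose, among them the adhesion molecule Epcam, by 2.60 (SE 0.50), and the tight junction gene Cldn7, by 2.05 (SE 0.43). Of 9 genes of basal urothelium and hemidesmosomes, the anchors of basal cells to the basement membrane, none passed (median 0.32). Of 12 squamous and cornified genes, Sprr1a rose by 2.56 (SE 0.57) and Tgm3 fell by 1.36 (SE 0.24). The median named gene differed by -0.13.

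Lists of other cell types were counted at 7 days in the same way. No smooth muscle (9 genes), fibroblast (8), leukocyte (9) or accessory gland (6) gene was a DEG, with list medians of 0.35, -0.16, -0.30 and 1.08. Of 5 endothelial genes Vwf fell by 1.00 (SE 0.17) and Kdr by 0.68 (SE 0.17), of 4 mesothelial genes Gpm6a rose by 1.85 (SE 0.30), and of 10 housekeeping genes B2m fell by 0.76 (SE 0.20). Of 9 intermediate filament genes of other cells, Gfap fell by 2.34 (SE 0.45). The highest accessory gland gene of an array spanned -3.76 to 5.56 over the BAM arrays and -3.87 to 5.83 over the BAM+ASCs arrays, and the mean of the 6 genes -6.86 to 0.98 and -7.30 to 1.49, so both groups held arrays with and without them.

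At 30 days, 0 of 10 keratins were DEGs in limma, where 1.97% of all named genes were. All 10 differences were again above 0, and 7 had an unadjusted p under 0.05. The largest differences were those of Krt17, Krt14, Krt13 (1.88, adjusted p = 0.203) and Krt5. That of Krt13 is limited by dim values, since it was well above background on 3 of 8 BAM and 5 of 8 BAM+ASCs arrays. Krt14 ranged from -2.35 to 2.21 (median -0.39) in BAM and from 0.01 to 4.92 (median 2.51) in BAM+ASCs. At this day 6 BAM+ASCs arrays lay above every BAM array. The difference was 2.79 (SE 1.09, limma adjusted p = 0.0941). Krt17 ranged from -4.47 to 0.13 (median -2.31) in BAM and from -1.78 to 3.25 (median 0.74) in BAM+ASCs, a difference of 2.87 (SE 1.11, limma adjusted p = 0.0909) with 5 BAM+ASCs arrays above every BAM array. Both had wide spreads, which the SE of more than 1 reflects.

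Krt5 differed by 1.75 at 30 days (SE 0.56, limma adjusted p = 0.0400), from medians of 0.96 and 2.14. Among luminal keratins the differences were 1.30 for Krt8 (adjusted p = 0.0570), 1.26 for Krt19, 1.15 for Krt7, 0.93 for Krt18 and 0.74 for Krt20. For Krt18, 7 BAM+ASCs arrays nevertheless lay above every BAM array, with ranges of 3.32 to 4.91 and 4.86 to 5.66. Krt15 differed by 0.49, with 7 of 8 BAM+ASCs arrays saturated.

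The same lists were counted at 30 days. The change of the graft difference from 7 to 30 days passed for no gene of the basal, uroplakin, transcription factor and junction lists. Of the 9 basal and hemidesmosome genes 2 rose, the integrin chains Itgb4, by 1.05 (SE 0.22, limma adjusted p = 0.001669), and Itga6, by 0.91 (SE 0.21). Of the 7 uroplakin and umbrella cell genes only Tspan1 rose, by 3.83 (SE 0.86). Of 12 transcription factors Tfap2a rose by 1.29 (SE 0.33) and Foxa1 by 1.05 (SE 0.22), and of 15 junction genes 4 rose, led by Cldn3, by 4.58 (SE 0.85). No squamous gene passed (median 1.33, against 0.08 for all named genes). Vim, the mesenchymal intermediate filament, fell by 0.92 (SE 0.23). On this day 4 of the 8 BAM+ASCs arrays, and no BAM array, had accessory gland genes above the 75th percentile. Without the arrays that held them no keratin was a DEG either, and the difference was 2.65 for Krt5 (limma adjusted p = 0.0142) and -0.04 for Krt20.

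At 90 days, 0 of 10 keratins were DEGs in limma, against 10.2% of all named genes, and 4 had an unadjusted p under 0.05. Krt18 came closest, ranging from 1.40 to 5.15 (median 4.56) in BAM and from 4.96 to 6.46 (median 5.60) in BAM+ASCs. At this day 6 BAM+ASCs arrays were above every BAM array, and the difference was 1.35 (SE 0.46, limma adjusted p = 0.0198). Krt18 was saturated on 4 BAM arrays (values of 4.43 to 4.70) and on 2 BAM+ASCs arrays, so the BAM level has an upper limit there and the difference may be overstated. Krt20 ranged from -4.09 to -0.69 (median -1.40) in BAM and from -1.98 to 2.48 (median -0.97) in BAM+ASCs, with 3 BAM+ASCs arrays above every BAM array and a difference of 1.30 (SE 0.56, limma adjusted p = 0.0637). BAM replicate 5 was the lowest BAM array for Krt7, Krt8, Krt15 and Krt18. Local background was higher on the BAM arrays of this day than on the BAM+ASCs arrays, and its part in the difference was not tested. Of the muscle and stromal lists, 3 of 9 smooth muscle genes and 3 of 8 fibroblast genes rose at this day, as did the housekeeping genes Rplp0, Actb and Ppia, by 1.02 to 1.15, and of 15 junction genes Ocln fell by 0.64 (SE 0.12).

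At 180 days, 0 of 10 keratins were DEGs in limma, where 1.05% of all named genes were, and 2 had an unadjusted p under 0.05. All 5 luminal keratins lay lower in BAM+ASCs, which was the reverse of the earlier days, but none passed. Krt20 ranged from -1.86 to 0.35 (median -0.60) in BAM and from -3.78 to -1.31 (median -2.13) in BAM+ASCs. At this day 6 BAM+ASCs arrays were below every BAM array and 5 BAM arrays were above every BAM+ASCs array. The difference was -1.62 (SE 0.56, limma adjusted p = 0.0912). Krt18 differed by -0.81 (SE 0.46, adjusted p = 0.467), with 7 BAM+ASCs arrays below every BAM array, and Krt8 by -0.72 (SE 0.45, adjusted p = 0.536), with 6. Among basal keratins the differences were between -0.08 and 0.30. Without BAM+ASCs replicates 5 and 6 (and BAM replicate 4 at 90 days), a choice made after seeing the data, they were -0.56 for Krt5, -1.48 for Krt14 and -0.23 for Krt15, so the direction of Krt5 and Krt14 turned. No gene of the basal, uroplakin, transcription factor, junction or squamous lists was a DEG.

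Whether the graft difference itself changed between neighboring days was tested as a contrast of contrasts. Krt20 was the only keratin that passed, between 90 and 180 days, with a change of -2.91 (SE 0.80, limma adjusted p = 0.005687), and 3.38% of named genes passed in the same direction. BAM+ASCs minus BAM went from 1.30 at 90 days to -1.62 at 180 days for this umbrella cell keratin. Krt20 was well above background on 5 of 8 BAM arrays at 90 days and 6 of 8 BAM+ASCs arrays at 180 days. In the brighter group of each day it was so on all 8. The part of these dim values, and of the higher local background of BAM at 90 days, in the change was not tested. Krt18 changed in the same direction by -2.15 (SE 0.65, limma adjusted p = 0.0125) and did not pass. Between 7 and 30 days 0 keratins passed in limma, against 0.872% of named genes, with none at an unadjusted p under 0.05. Between 30 and 90 days 0 passed, against 7.7% of named genes, with 1 at an unadjusted p under 0.05. The Krt20 call was close to the threshold: leaving out any 1 of 7 arrays ended it, with the adjusted p between 0.0101 and 0.0151 and the change between -2.47 and -2.80. Those arrays were BAM+ASCs replicates 3, 4 and 7 and BAM replicate 3 at 180 days, and BAM+ASCs replicate 3 and BAM replicates 2 and 5 at 90 days.

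Over time, Krt20 spanned the widest range of group means among the luminal keratins. In bladders reconstructed with BAM only its mean was -4.53 ± 1.17 (SD, n = 8) at 7 days, -2.73 ± 0.64 at 30, -1.95 ± 1.35 at 90 and -0.78 ± 0.79 at 180 days. No single step passed in limma, and the first was 1.80 (SE 0.56, adjusted p = 0.0159). Of the 90-day arrays, 5 lay above every 30-day array and 2 below every 30-day array, and that step of 0.77 had a limma adjusted p of 0.229. In BAM+ASCs the mean was -4.50 ± 1.01 at 7 days, -1.99 ± 1.51 at 30, -0.66 ± 1.44 at 90 and -2.39 ± 0.94 at 180 days. Its first step passed, at 2.52 (SE 0.56, limma adjusted p = 0.0007321), and it was the only 1 of the 10 keratins to do so, against 4.98% of named genes that rose. For 2 members the step had an unadjusted p under 0.05 in that step. Without the arrays that held accessory gland genes the step was 1.55 (limma adjusted p = 0.283) and was no longer a DEG, so its size depended on those arrays.

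In BAM only, Krt18 was the keratin that rose from 7 to 30 days, by 1.97 (SE 0.46, 3.92-fold, limma adjusted p = 0.0009082), from a median of 2.65 to 4.43, and 4.93% of named genes rose in that step. Krt8 differed by 1.30 (SE 0.45, adjusted p = 0.0298), Krt7 by 1.31 (adjusted p = 0.0625) and Krt19 by 1.18 (adjusted p = 0.106), and the basal keratins by 1.05 for Krt15, 0.90 for Krt5 and -1.56 for Krt14. Leaving out BAM replicate 4 at 7 days added Krt8 (adjusted p = 0.00567), and leaving out BAM replicate 7 added Krt20 (adjusted p = 0.00390). With the accessory gland arrays left out, Krt7, Krt8, Krt18 and Krt19 all passed, Krt18 by 2.85. Of the uroplakin and umbrella cell genes 5 of 7 rose in this step, among them Upk2, by 3.95 (SE 0.58), and Slc14a1, the urea transporter, by 2.53 (SE 0.35), and of the 9 basal and hemidesmosome genes none did. Other cell types moved in the same step: 4 of 5 endothelial and 3 of 8 fibroblast genes fell, the neutrophil genes S100a8 and S100a9 fell by 5.62 and 5.52, and 3 of 9 smooth muscle genes rose, and their part in the keratin values was not tested.

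The order of the group means for Krt18 placed BAM at 7 days lowest (2.37 ± 2.07) and then BAM at 90 days (4.21 ± 1.20), BAM at 30 days (4.34 ± 0.54), BAM+ASCs at 7 days (4.51 ± 0.50), BAM+ASCs at 180 days (4.63 ± 0.45), BAM+ASCs at 30 days (5.27 ± 0.28), BAM at 180 days (5.44 ± 0.33) and BAM+ASCs at 90 days (5.56 ± 0.47). The neighbors among the middle 4 and among the upper 3 lay within their spreads. Krt18 was saturated on 4 arrays of BAM at 90 days, 4 of BAM at 180 days and 2 each of BAM+ASCs at 30 and 90 days, so the order of these groups is partly set by the limit of the scanner. At later steps in BAM, 0 keratins passed in limma from 30 to 90 days, against 41.3% of named genes, with 1 at an unadjusted p under 0.05, and 0 from 90 to 180 days, against 7.83%, with 2. Krt18 differed by 1.22 in the last step (adjusted p = 0.0437). The 30 to 90 day step also crossed the change of scan date, and scan date and day cannot be told apart there.

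In BAM+ASCs, the widest changes after 30 days were those of Krt14 and Krt17. From 30 to 90 days 0 of 10 passed in limma, against 28.6% of named genes, with 3 at an unadjusted p under 0.05. Krt14 went from 2.89 ± 1.59 to -0.33 ± 1.95 (difference -3.22, SE 1.09, limma adjusted p = 0.0116) and Krt17 from 0.98 ± 1.62 to -2.32 ± 1.97 (difference -3.30, SE 1.11, limma adjusted p = 0.0110). Both became DEGs when BAM+ASCs replicate 2 or 3 at 90 days or replicate 5 at 30 days was left out, and Krt17 alone without replicate 1 at 30 days. Both also passed in a fit of only the groups compared (adjusted p = 0.00599 and 0.00554). From 90 to 180 days 0 passed in limma, against 2.67% of named genes, with 4 at an unadjusted p under 0.05, and Krt20 had the largest difference among luminal keratins, -1.74 (adjusted p = 0.0315).

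The means of Krt13, Krt14 and Krt17 were set by a few arrays in BAM at 90 days and in BAM+ASCs at 180 days. In BAM at 90 days Krt14 ranged from -3.56 to 4.64 with a median of -2.60, and in BAM+ASCs at 180 days from -3.68 to 5.17 with a median of -1.71. BAM replicate 4 at 90 days held the highest value of Krt13 (1.12), Krt14 (4.64) and Krt17 (3.25) in its group. BAM+ASCs replicates 5 and 6 at 180 days were high in the same 3 genes. For these keratins the mean of BAM at 90 days and of BAM+ASCs at 180 days describes no typical array. Krt14 was also widely spread in BAM+ASCs at 90 days (-2.73 to 1.96) and in BAM at 180 days (-4.44 to 2.49), but not through a few arrays. Krt13 was well above background on 0 of 8 BAM arrays and 3 of 8 BAM+ASCs arrays at 180 days. Its fitted difference of 2.43 did not pass (limma adjusted p = 0.166). The BAM+ASCs mean, which included arrays not well above background, was 4.08-fold the lowest signal measured above background. That 4.08-fold value has no p of its own and rested on replicates 5 and 6. It was 2.35 without replicate 5, 2.45 without replicate 6 and 1.19 without both.

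The balance of basal and luminal keratins was taken on each array as the mean of Krt5, Krt14 and Krt15 minus the mean of the 5 luminal keratins, and only its change between groups carries meaning. In BAM it was 1.70 ± 0.41 (SD, n = 8) at 7 days, 0.32 ± 0.62 at 30, -0.60 ± 1.02 at 90 and -0.73 ± 0.79 at 180 days. In BAM+ASCs it was 1.48 ± 0.67, 0.91 ± 0.85, -0.69 ± 1.07 and 0.12 ± 1.44. For both kinds of graft the mean thus lay further to the basal side at 7 days than at 90 days. In BAM+ASCs, Krt14 and Krt20 moved most between those days, from 2.77 to -0.33 and from -4.50 to -0.66. Basal Krt5 went the other way, from -0.18 to 1.22 in BAM and from 1.54 to 1.72 in BAM+ASCs. Basal Krt15 went from 3.97 to 4.40 in BAM, with 5 arrays saturated at 90 days, and from 5.48 to 5.37 in BAM+ASCs. In BAM, Krt14 was thus the only basal keratin that fell, from 1.66 to -1.41. Days 7 and 90 were also scanned on different dates, so day and scan date cannot be told apart here. Single arrays of those days overlapped in BAM and did not in BAM+ASCs, where the lowest 7-day array was at 0.56 and the highest 90-day array at 0.51. BAM+ASCs minus BAM was -0.21, 0.60, -0.09 and 0.84 at the 4 days, with pooled SDs of 0.55, 0.74, 1.04 and 1.16, so each difference was smaller than the spread between rats. Without BAM+ASCs replicates 5 and 6 the 180-day difference was 0.12. At 7 days the basal mean was 1.82 in BAM and 3.27 in BAM+ASCs, and the luminal mean was 0.12 and 1.78. Both sets thus stood higher, by amounts that differed by less than that spread. Of the basal keratins, Krt15 was then saturated on 6 BAM+ASCs arrays against 2 BAM arrays, so the basal rise may be understated. Saturated spots of Krt15 or Krt18 were also unevenly divided between the grafts on the later days. The effect of saturation on the balance was not tested, so an equal rise of both sets is not shown.

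**Figure D3:**
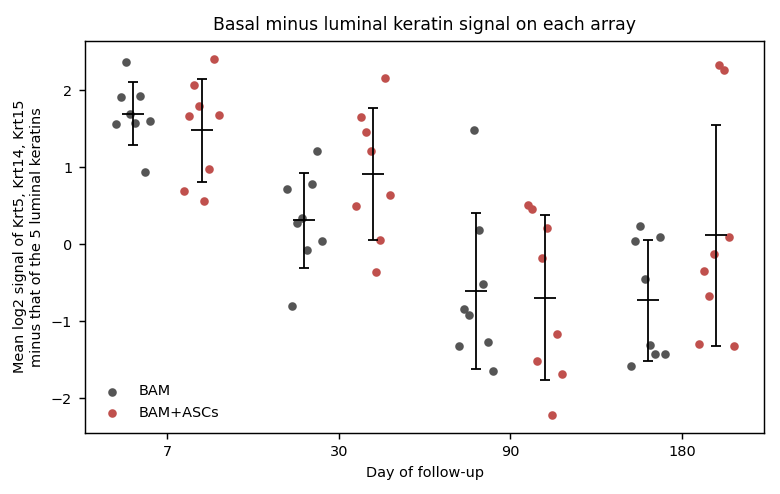
Mean of the 3 basal keratins minus mean of the 5 luminal keratins on each array (log2, vertical axis) by day, for BAM and BAM+ASCs, with the mean and SD of 8 arrays per group. The BAM means go from 1.70 at 7 days to -0.73 at 180 days, and the 2 highest BAM+ASCs arrays at 180 days are replicates 5 and 6.

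Within groups, the keratins varied together in sets that did not follow the basal and luminal labels fully. The values were deviations from group means over 64 arrays, the arrays of a group shared a slide, and the coefficients are descriptions. Krt7, Krt8, Krt18 and Krt19 had a median Pearson r of 0.91 with each other, between 0.80 and 0.96 in the 8 groups taken singly. Krt15, listed as basal, had an r of 0.88 with Krt18, 0.87 with Krt7, 0.86 with Krt19 and 0.71 with Krt8, and of 0.60 with Krt5 and 0.32 with Krt14 among basal keratins. Its median r with the 4 luminal keratins was 0.87 and ranged from 0.76, without BAM replicate 7 at 7 days, to 0.88 when single arrays were left out, and its 23 saturated arrays limit these values. Krt14 and Krt17 had an r of 0.99, and between 0.959 and 0.997 by group. Krt5 had an r of 0.74 with Krt14 and 0.71 with Krt7. Krt20 had a median r of 0.18 with the other luminal keratins. The value rested largely on BAM replicate 7 at 7 days, without which it was 0.48, and ranged from 0.07 to 0.23 when any other array was left out. By group it was above 0 in 7 of 8 groups, up to 0.89, and -0.54 in BAM at 7 days. Krt13 had a median r of 0.62 with Krt14 and Krt17, which by group ran from -0.42 in BAM at 7 days to 0.97. It was well above background on 17 of 64 arrays only, which limits these values.

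**Figure D4:**
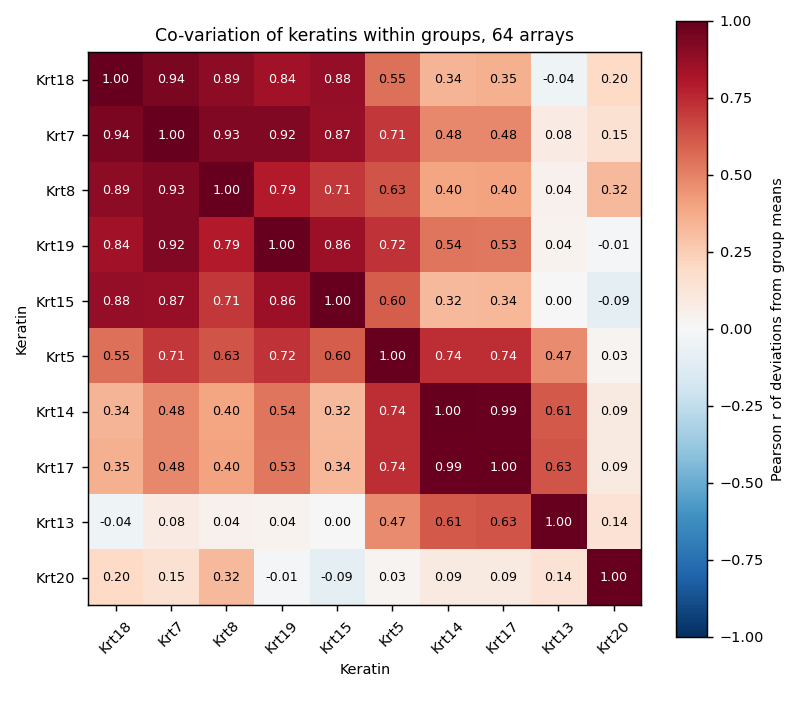
Pearson r between each pair of the 10 keratins over 64 arrays after the mean of each group was subtracted (color scale from -1 to 1). Krt7, Krt8, Krt18, Krt19 and Krt15 form one set of high values (0.71 to 0.94), Krt14 and Krt17 another (0.99), and Krt20 has values between -0.09 and 0.32 with every other keratin.

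The same sets appeared in part against the mean of other gene lists. Krt7 had an r of 0.92 with the uroplakin list and Krt18 of 0.93, while Krt20 had 0.21. For Krt20 no value without BAM replicate 7 at 7 days is given, the array on which its r with luminal keratins largely rested. Krt5 had an r of 0.64 with the uroplakin list and 0.75 with the squamous and cornified list, so it fell in neither set alone. Krt14, Krt17 and Krt13 had an r of 0.80, 0.82 and 0.83 with the squamous and cornified list. The mean of that list had an SD of 1.33 in BAM at 90 days and 1.47 in BAM+ASCs at 180 days, against 0.28 to 0.84 in the other groups. Those groups hold the 3 arrays high in Krt13, Krt14 and Krt17, and no r with this list is given without them. The genes most like a keratin within groups were sought among 11132 genes well above background on at least 32 arrays, members left out. For Krt8 it was Cdh1, which encodes E-cadherin (r = 0.96), for Krt18 the potassium channel gene Kcnk1 (0.94) and for Krt19 the aquaporin gene Aqp3 (0.92). For Krt15 it was Tmem30b (0.94) and for Krt5 the tetraspanin gene Tspan8 (0.86). Krt14 and Krt17 had the same 3 nearest genes, Vsnl1, the connexin gene Gjb2 and the keratin gene Krt6c, with r of 0.82 to 0.89. For Krt13 it was Sprr3, a cornified envelope gene (0.84), and for Krt20 it was Gdpd3 (0.76).

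The 35 other keratin genes on the array, mostly of hair and skin, held 2, 0, 2 and 2 DEGs between grafts at 7, 30, 90 and 180 days, where 7.75%, 1.97%, 10.2% and 1.05% of all named genes were DEGs. At 7 days Krt23 rose by 1.75 (SE 0.49, limma adjusted p = 0.00737) and Krt33a fell by 1.44 (SE 0.27), at 30 days none passed (median difference 0.61), at 90 days Krt33a and Krt80 fell by 0.91 and 1.08, and at 180 days Krt79 and Krt80 rose by 0.69 and 0.95. From 30 to 90 days in BAM, 22 of these 35 rose and 1 fell, where 30.6% of all named genes rose, with a median difference of 2.00 against 0.19 for all named genes, in the step that crossed the change of scan date. Many of them lay near background, and none of the 10 members rose in that step.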

How the data were processed

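Total RNA of reconstructed bladder wall was labeled with cyanine 3 and hybridized to 64 1-color Agilent rat arrays. The authors deposited Agilent Feature Extraction (version 12.0.1.1 per the file headers) output. Its processed signals, linear intensity values as deposited, were already background-corrected. A series matrix was deposited as well, equal to these intensities within 0.01 on the log2 scale for 61 of 64 arrays, and served as an alternative only.

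Control and outlier spots were left out, the log2 signal was centered on the 75th percentile of each array, and spots of a probe were averaged. Probes were named through RefSeq accessions matched to the GRCr8 table, so that 18750 of 30367 gene probes were named, for 15709 genes. Where a gene had several probes, the 1 with the highest mean signal was used in gene counts, and each of the 10 keratins had 1 probe. Groups came from the sample titles. A linear model of the 8 groups (limma 3.58.1, R 4.3.3) used all 64 arrays and no block, and gave 13 contrasts. Adjusted p is Benjamini-Hochberg. Where both groups had some arrays above background the fold is as fitted. A bound for Krt13 replaces the dim group by the lowest signal of a probe well above background on each array. Other steps ran in Python 3.11.15 (numpy 2.4.6, pandas 2.3.3, matplotlib 3.10.9). No depth exists for arrays, and the number of arrays limits the precision. The rats of a group are separate animals per the labels.

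The keratins and gene lists were chosen by name and function, with earlier results of these data known. All 10 keratins are named, and of each list up to 4 DEGs with the largest difference per comparison. On simulated data for the 7-day comparison (30367 probes, 200 changed), 48% of changes of 1 and 85% of changes of 2 on the log2 scale were recovered, with 1 false call. The SD at 7 days was 2.18 in BAM and 0.55 in BAM+ASCs for Krt7, and 2.37 and 0.47 for Krt19. Recovery with spreads that differ between the groups in this way was not tested. Promoters came from the RefSeq table of GRCr8, which gave 4 of the 10 keratins. Alternatives were normexp background correction (offset 50), quantile normalization, the percentile over detected probes, the series matrix, outlier spots kept, dim probes left out, a fit of only the groups compared, the replicate number as a block, 2-way ANOVA without moderation, and each array left out in turn. Leaving out arrays with accessory gland genes, or 3 arrays high in Krt13, Krt14 and Krt17, was added after seeing the data. The gene most like Krt7 is not reported here.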

Additional observations from a re-analysis of the deposited data

Results flagged for a closer look

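Single arrays lay far from the rest of their group in 16 of 80 sets of 1 keratin in 1 group of 8, by a gap over 0.526 of the range of the group. Chance alone flags about 1 in 20 such sets, and keratins of 1 array are not independent.

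BAM replicate 7 at 7 days was lowest in Krt7 (-2.78, next array 0.85), Krt15 (-1.23, next 3.25) and Krt19 (-3.76, next 1.01), and highest in Krt13 (-4.17, next -6.86). BAM+ASCs replicate 3 at 7 days was lowest in Krt7 (2.65), Krt8 (0.60) and Krt15 (4.62). BAM replicate 5 at 90 days was lowest in Krt7 (-0.0436, next 2.67), Krt8 (-2.55, next 0.59), Krt15 (2.42) and Krt18 (1.40, next 3.88). BAM replicate 4 at 90 days was highest in Krt13 (1.12), Krt14 (4.64, next -0.03) and Krt17 (3.25, next -1.78). BAM+ASCs replicate 3 at 90 days was highest in Krt7 (5.29) and Krt20 (2.48, next -0.02).

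The difference between grafts in Krt20 changed between 90 and 180 days by -2.91 (limma adjusted p = 0.005687, contrast of contrasts). The dimmer group of each day held arrays where Krt20 was not well above background.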

How the results depend on the processing

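All values here are counts of the 10 keratins called by limma unless another quantity is named, and no called value changed direction under any alternative. In the 7-day comparison 4 were called, 0 in a fit of only the groups compared, and 2 to 5 when single arrays were left out. The 2 came without BAM replicate 7 and the 5, with Krt15 added, without BAM replicates 2, 4, 5 or 8 or BAM+ASCs replicate 3. The 7-day count was 5 when accessory gland arrays were left out and 5 when the 3 arrays high in Krt13, Krt14 and Krt17 were (Krt5 added). It was also 5, with Krt15 added, with the percentile over detected probes (limma adjusted p = 0.00902) and with dim probes left out (limma adjusted p = 0.00932). At 30, 90 and 180 days it stayed between 0 and 0. For BAM from 7 to 30 days the count was 1, 1 to 2 without single arrays, and 4 without accessory gland arrays. For BAM+ASCs from 7 to 30 days it was 1, 1 to 1 without single arrays, 0 without accessory gland arrays, and 2 without the 3 arrays (Krt13 added). For BAM+ASCs from 30 to 90 days it was 0, 0 to 2 without single arrays, 2 in a fit of only the groups compared and 2 without the 3 arrays (Krt14 and Krt17). For the other later steps it stayed between 0 and 0. The change of the graft difference from 90 to 180 days was called for 1 keratin, 0 to 2 without single arrays, and 2 with the percentile over detected probes or with dim probes left out (Krt18 added). Without BAM+ASCs replicate 1 at 180 days or BAM replicates 3 or 8 at 90 days Krt18 was added too. In a fit of only the groups compared Krt18 took the place of Krt20 (adjusted p = 0.0125 for Krt20), so that the count was again 1, and Krt18 from 7 to 30 days in BAM gave way to Krt20 (adjusted p = 0.0558 for Krt18). The 2 other changes of the graft difference stayed between 0 and 0. The cause of these shifts was not tested, except that the smaller fits hold fewer arrays.

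The basal minus luminal difference between grafts ranged, without single arrays, from -0.35 to -0.08 at 7 days, 0.42 to 0.78 at 30, -0.26 to 0.21 at 90 and 0.53 to 1.05 at 180 days. The r of Krt14 with Krt17 was 0.987 and became 0.98 after quantile normalization. Ranges of r without single arrays were 0.885 to 0.911 among Krt7, Krt8, Krt18 and Krt19, 0.984 to 0.990 for Krt14 with Krt17, 0.0681 to 0.476 for Krt20 with those 4, 0.420 to 0.457 for Krt14 and Krt17 with those 4, 0.552 to 0.692 for Krt13 and 0.053 to 0.153 for Krt20, each with Krt14 and Krt17.

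Replicate numbers are shared between groups but did not pair the arrays: arrays of the same number had an r of deviations from -0.28 to 0.33, over 0.1 in at most 3 of 8 pairs per day. With the replicate number as a block the 7-day count was 4 and no count changed. A mean over all probes of a gene was not run, since each keratin had 1 probe. Signal over background limits Krt13 most, which was well above background on 17 of 64 arrays.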
